A study of Mus musculus with 24 samples.

Results

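The 51 genes described here are homeobox transcription factor genes, taken from the 34039 genes of the mouse amygdala RNA table by their symbols alone. They comprise 8 LIM genes (Lhx), 4 Dlx, 7 Nkx, 3 Meis, 3 Pbx, 2 Otx, 5 Irx, 3 Zfhx and 12 POU genes, together with the 4 genes Six2 to Six5. The symbol rule uses no measured value, although it was set with earlier results of these data known. Homeobox proteins bind DNA through a homeodomain, and each family adds a further feature, such as the LIM domains of Lhx proteins, the POU domain of Pou proteins or the zinc fingers of Zfhx proteins. In the developing forebrain they act in combinations that set the kind of neuron or glial cell a progenitor becomes, and many stay on in the mature cell. Amygdala neurons come from several embryonic sources, among them the ganglionic eminences, which give GABAergic neurons under Dlx genes, and the pallium, which gives glutamatergic neurons.

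Nuclei came from the amygdala of adult male mice, aged 10 to 16 weeks, of the inbred strains BL6 and DBA, for which the labels give no further allele and no treatment. Each strain had 2 RNA and 2 ATAC libraries, each from the pooled tissue of about 2 animals, and RNA nuclei were sorted with a NeuN antibody to 75% neurons and 25% other cells, whereas ATAC nuclei were sorted without NeuN. The RNA libraries held 30693629 to 66304405 counts from 2867 to 8079 nuclei, and the ATAC libraries 66535381 to 86927891 counts from 3694 to 6943 nuclei. Libraries carry the numbers 2 and 3 of the count tables, so that a pair of values "in BL6" gives BL6-2 and then BL6-3. The 22 cell types are the authors' own clusters, named by class (Exc, Inh, NN for non-neuronal) and a gene or cell name. Levels are CPM, the counts of a gene scaled to a total of 1000000 counts for a cell type in 1 library.

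Marker genes mostly went with the names: the summed astrocyte markers were highest in NN-Astro, oligodendrocyte markers in NN-ODC, precursor markers in NN-OPC, microglial markers in NN-MGC, somatostatin-cell markers in Inh-Sst and Drd2-neuron markers in Inh-Drd2. An exception bears on several members. NN-Endo-VLMC, a type of 10 to 35 nuclei per library, held 1575 CPM of summed intercalated-neuron markers (Foxp2, Tshz1, Drd1, Oprm1) beside 357 CPM of leptomeningeal markers. Its members differed from those of Inh-Tshz1. Meis2 had a mean of 153 CPM against 2318 CPM in Inh-Tshz1, Pbx3 603 CPM against 1393 CPM, and Dlx6 had no counts in NN-Endo-VLMC. What cells this type holds was not tested. Exc-Strip2 had 75, 3, 1 and 77 RNA nuclei in BL6-2, BL6-3, DBA-2 and DBA-3, so its levels in BL6-3 and DBA-2 rest on very few nuclei. Because the clusters were made from the same RNA, levels across types are given as a description without a test, and a type was said to carry a member when its mean over 4 libraries reached 20% of the member's highest type with at least 1 count in each library.

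Of the 51 genes, 30 had 200 or more counts over all nuclei. Their highest type was inhibitory for 10, excitatory for 4 and non-neuronal for 16, so a description as genes of neuron identity covers only part of the family in adult tissue. A member was carried by between 1 and 22 types, with a median of 5. The number carried by 3 or fewer types was 11, and 6 were carried by 15 or more. The highest type was the same in both strains for 26 of the 30 members, and the same in all 4 libraries for 18.

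**Figure D1:**
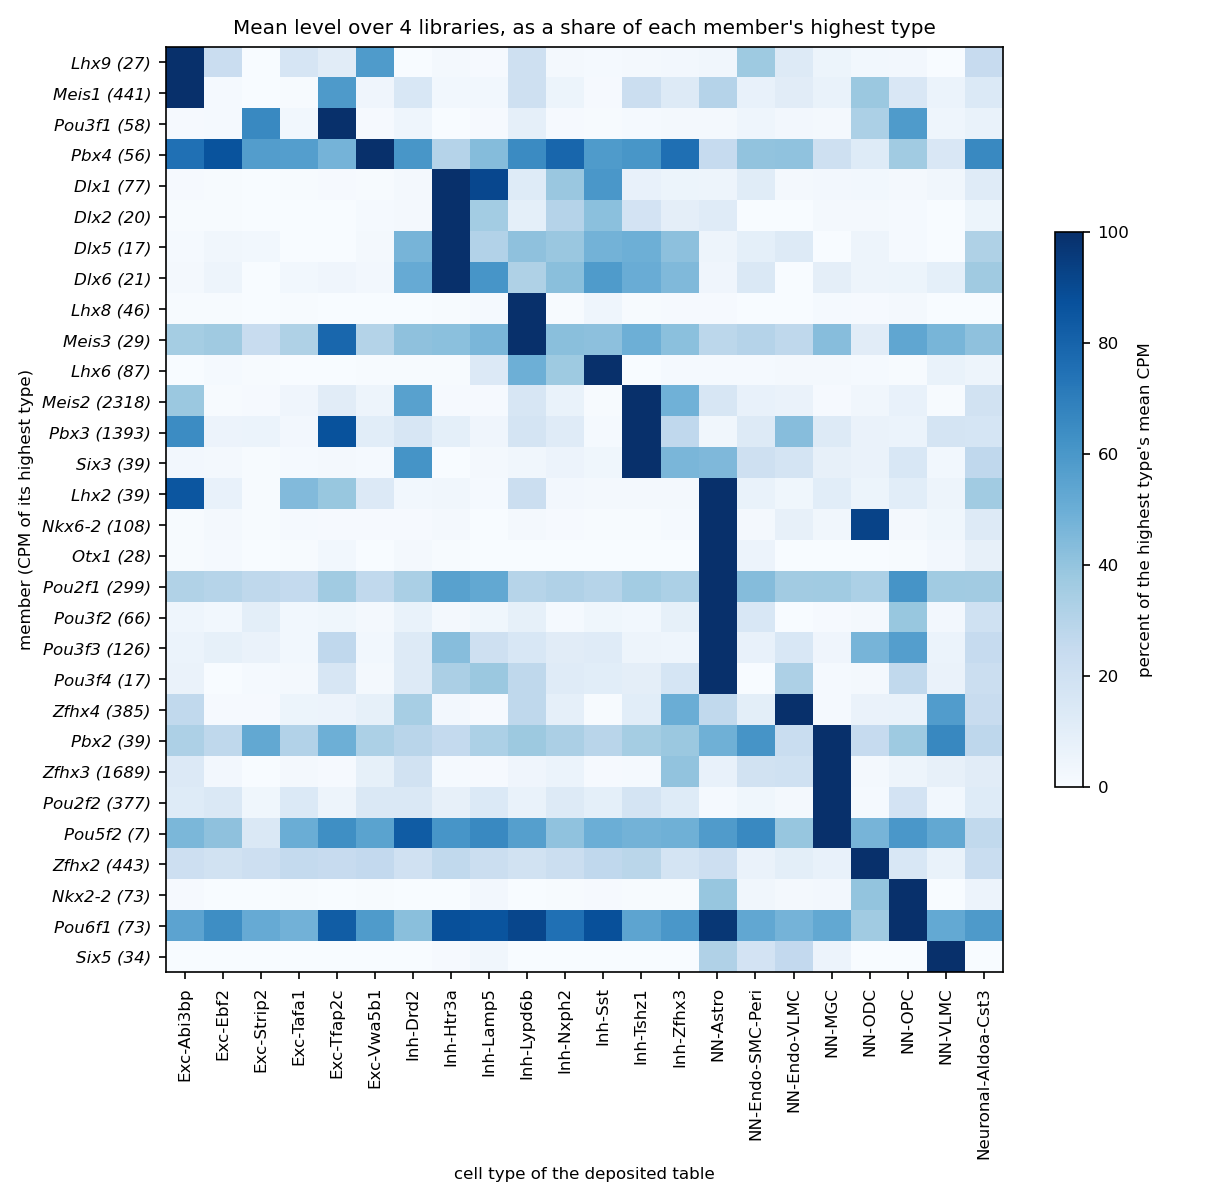
Mean RNA level of the 30 members with 200 or more counts (rows) in the 22 cell types (columns), as a percent of each member's highest type; the number beside each name is the mean CPM of that type over 4 libraries. The Dlx rows are dark in inhibitory types alone, Lhx8 in 1 type, and Pou2f1, Pou6f1 and Pbx4 are pale to dark in nearly every type.

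The Dlx genes, which start and keep up the GABAergic programme of ganglionic eminence cells, had 1 shared highest type, Inh-Htr3a, the type with the most Vip-cell and Lamp5-cell markers. Dlx1 stood there at 87.2 and 65.4 CPM in BL6 and 69.9 and 86.4 CPM in DBA. Its next type was Inh-Lamp5, at 59.8 and 61.8 CPM in BL6 and 92.5 and 66.5 CPM in DBA. The ranges of these types overlapped and Inh-Lamp5 came first in DBA, whereas the other 3 Dlx genes had the same highest type in both strains. Dlx1 was carried by 2 more types, Inh-Sst with a mean of 46.4 CPM and Inh-Nxph2 with 29.7 CPM, while Exc-Abi3bp held 0.754 CPM. Dlx6 gave 19.4 and 21.8 CPM in BL6 and 25.0 and 18.7 CPM in DBA in Inh-Htr3a, with all 4 libraries within a narrow band. Dlx2 and Dlx5 reached means of 19.6 and 17.1 CPM in the same type. Dlx1 and Dlx2 were carried by 4 types each and Dlx5 and Dlx6 by 8 each, all of them inhibitory apart from Neuronal-Aldoa-Cst3 for Dlx5. Across the 22 types the closest match of Dlx1 was Dlx2 (r = 0.90 on log2(CPM + 1)) and that of Dlx5 was Dlx6 (r = 0.88), each the gene's neighbour in the genome. Dlx1 and Dlx6 overlap the antisense genes Dlx1as and Dlx6os1 (3799 counts in BL6 and 3399 in DBA for Dlx1as). Since the strand setting of the counting is not given in the sources used here, reads of the partners cannot be told apart.

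Among 39 members with a RefSeq promoter sequence, Dlx2 and Six3 were the 2 whose window of 250 bases lay under a peak that differed between strains, as given further on. Their 250 bases before the start are printed 5′ to 3′ from RefSeq (GRCm38.p6, the build of mm10), on the minus strand at chr2:71546755-71547004 for Dlx2 and the plus strand at chr17:85620584-85620833 for Six3. Capitals mark TAAT or its reverse complement ATTA, the core that many homeodomains bind, and TGACAG or CTGTCA, the site of Meis and Tgif proteins.
Dlx2: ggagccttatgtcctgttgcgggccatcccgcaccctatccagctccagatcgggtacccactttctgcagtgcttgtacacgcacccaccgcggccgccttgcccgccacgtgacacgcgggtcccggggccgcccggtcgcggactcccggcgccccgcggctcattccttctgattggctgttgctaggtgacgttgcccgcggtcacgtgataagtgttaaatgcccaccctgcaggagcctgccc
Six3: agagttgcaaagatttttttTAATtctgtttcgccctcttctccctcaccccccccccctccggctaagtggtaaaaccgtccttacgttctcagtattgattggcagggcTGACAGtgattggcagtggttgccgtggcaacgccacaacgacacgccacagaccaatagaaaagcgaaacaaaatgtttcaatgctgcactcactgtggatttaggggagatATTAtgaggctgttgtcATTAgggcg
The Dlx2 window, at 66.4% G and C, held no match to TAAT, none to TGACAG and none to the octamer of POU proteins, ATGCAAAT, on either strand. The Six3 window, at 48.8%, held 3 matches to TAAT and 1 to TGACAG. Over windows of the same length before all 32851 RefSeq starts, 54.9% held TAAT, 15.9% TGACAG and 1.60% ATGCAAAT. Of the 39 member windows, 17 held TAAT and 6 TGACAG. A match describes letters and not a bound site.

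LIM genes marked smaller sets of neurons. Lhx6, which directs cells of the medial ganglionic eminence to the somatostatin and parvalbumin fates, was highest in Inh-Sst, at 69.4 and 78.9 CPM in BL6 and 98.5 and 99.5 CPM in DBA. It was also carried by Inh-Lypd6b (mean 42.9 ± 11.2 CPM, SD, n = 4) and Inh-Nxph2 (32.2 ± 8.56 CPM). These are the first 3 types in its order, and the Inh-Sst libraries all lay above the libraries of the other two. Lhx8, a partner of Lhx6 in the medial ganglionic eminence and a factor of cholinergic neurons, was carried by Inh-Lypd6b alone, at 31.1 and 58.8 CPM in BL6 and 37.0 and 57.9 CPM in DBA. The next type, Inh-Sst, had a mean of 2.09 CPM, which made Lhx8 the most type-restricted of the 30 members by the tau index (0.99, where 1 is 1 type only). Nkx2-1, which acts upstream of both in the medial ganglionic eminence, had 151 counts in all and was highest in Inh-Sst with a mean of 10.00 CPM, the first type in each of the 4 libraries.

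Lhx9 and Lhx2, close relatives, both had high levels in excitatory types. Lhx9 stood at 27.0 and 21.5 CPM in BL6 and 24.0 and 37.3 CPM in DBA in Exc-Abi3bp and at 13.8 and 15.1 CPM in BL6 and 17.7 and 17.6 CPM in DBA in Exc-Vwa5b1. The lowest Exc-Abi3bp library was above the highest Exc-Vwa5b1 library. Lhx2, a factor of cortical progenitors and astrocytes, had a level in NN-Astro, 35.2 and 42.5 CPM in BL6 and 45.8 and 31.6 CPM in DBA, that overlapped its level in Exc-Abi3bp, 31.3 and 26.8 CPM in BL6 and 34.4 and 39.6 CPM in DBA. Lhx2 was therefore shared by a glial and a neuronal type in both strains. Lhx5 and Lhx1, factors of early forebrain neurons including Cajal-Retzius cells, had 185 and 33 counts and were highest in Inh-Lypd6b, the type that carried Lhx8. Lhx3 and Lhx4, known from motor neurons and pituitary, had 16 and 76 counts.

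Meis and Pbx proteins are TALE homeodomain factors that bind DNA together and act as cofactors of other homeodomain proteins. Meis2, a gene of striatal and other lateral ganglionic eminence neurons, gave 2313 and 2239 CPM in BL6 and 2415 and 2305 CPM in DBA in Inh-Tshz1, the type with the most intercalated-neuron markers. It was carried by 3 other types, Inh-Drd2 (1294 ± 426 CPM), Inh-Zfhx3 (1124 ± 47.6 CPM) and Exc-Abi3bp (887 ± 38.2 CPM). Inh-Tshz1 was above the others in every library. Pbx3 shared this type, at 1371 and 1308 CPM in BL6 and 1547 and 1346 CPM in DBA, but was also carried by Exc-Tfap2c, at 1099.8 and 1164 CPM in BL6 and 1214 and 1357 CPM in DBA. The ranges of these 2 types overlapped. Pbx3 was further carried by Exc-Abi3bp (mean 899 CPM), NN-Endo-VLMC (603 CPM) and Inh-Zfhx3 (374 CPM). Meis1 was carried by 6 types of all 3 classes: Exc-Abi3bp held 426 and 422 CPM in BL6 and 489.9 and 428 CPM in DBA, Exc-Tfap2c had a mean of 259 CPM, NN-ODC 168 CPM, NN-Astro 133 CPM, Inh-Tshz1 98.7 CPM and Inh-Lypd6b 91.1 CPM. Every Exc-Abi3bp library was above every library of those types.

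Pbx4 and Pbx2 were broad, carried by 17 and 18 types. Pbx4 stood at 46.1 and 55.2 CPM in BL6 and 57.3 and 66.6 CPM in DBA in Exc-Vwa5b1, which overlapped its level in Exc-Ebf2 (mean 48.8 CPM). Pbx2 gave 37.7 and 52.0 CPM in BL6 and 32.1 and 35.6 CPM in DBA in NN-MGC. Only 1 of 4 libraries had the overall highest type first for each of Pbx2 and Pbx4, so the order of their types is not resolved. Meis3, carried by 16 types, gave 12.6 and 50.4 CPM in BL6 and 27.7 and 24.4 CPM in DBA in Inh-Lypd6b, and its BL6 libraries lay on either side of both DBA libraries.

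Six3, which represses Wnt signals in the early forebrain and is needed for striatal neurons, followed Meis2 across types (r = 0.71, its closest member by this measure). It stood at 44.2 and 30.8 CPM in BL6 and 40.7 and 41.2 CPM in DBA in Inh-Tshz1 and was carried by 4 more types, among them Inh-Zfhx3 (mean 18.1 CPM) and NN-Astro (mean 17.7 CPM). Six5 gave 57.1 and 23.4 CPM in BL6 and 31.4 and 23.2 CPM in DBA in NN-VLMC, from 3 to 9 counts per library, and was also carried by NN-Astro (10.8 ± 3.20 CPM, from 30 to 61 counts per library). Six2 (26 counts) and Six4 (195 counts, overlapping Mnat1) had their highest mean in NN-Endo-VLMC, which rests on 0 to 5 counts per library for Six2 and 0 to 3 for Six4. The type that carried Six4 was NN-OPC (4.51 ± 1.12 CPM, from 6 to 9 counts per library), and no type carried Six2.

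Among the Nkx, Otx and Irx genes, Nkx2-2, Nkx6-2, Otx1, Irx1, Irx2 and Irx5 were highest in glial types, whereas Nkx2-1 was highest in Inh-Sst, as given above. Nkx2-2, which sets the timing of oligodendrocyte differentiation, gave 77.7 and 59.5 CPM in BL6 and 71.0 and 85.6 CPM in DBA in NN-OPC. It was lower in NN-ODC (mean 29.3 ± 9.57 CPM) and NN-Astro (28.9 ± 6.23 CPM), and all NN-OPC libraries lay above both. Nkx6-2, a gene of myelinating oligodendrocytes, was carried by NN-Astro, at 89.1 and 105 CPM in BL6 and 106 and 131 CPM in DBA, and by NN-ODC, at 65.2 and 94.1 CPM in BL6 and 129 and 109 CPM in DBA. NN-Astro came first in BL6 and NN-ODC in DBA, with ranges that overlapped. Otx1, a gene of deep cortical neurons, was instead carried by NN-Astro alone, at 22.03 and 32.1 CPM in BL6 and 26.6 and 29.3 CPM in DBA, and no other type exceeded a mean of 2.24 CPM. Irx1 and Irx2, with 95 and 79 counts, were highest in NN-OPC in all 4 libraries, at means of 11.4 and 8.15 CPM. Irx5, with 46 counts, was carried by NN-Astro (2.39 ± 0.20 CPM, from 9 to 13 counts per library). Irx3 and Irx6 had 31 and 3 counts. Nkx2-4, Nkx2-9, Nkx6-1 and Nkx6-3 had 6 to 33 counts each.

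The 3 Zfhx genes, giant proteins with several homeodomains and zinc fingers, each led in a different type. Zfhx3, known from circadian neurons and from postmitotic differentiation, gave 1717 and 1838 CPM in BL6 and 1494 and 1708 CPM in DBA in NN-MGC, ahead of 749.7 and 582 CPM in BL6 and 674 and 731 CPM in DBA in the neuronal type named after it. Microglia thus held more Zfhx3 CPM than Inh-Zfhx3 in every library. Zfhx2 gave 581 and 565 CPM in BL6 and 263 and 364 CPM in DBA in NN-ODC, against a mean of 128 CPM in its next type, Inh-Tshz1. It was nonetheless broad, carried by most Exc types and several Inh types, for example Inh-Sst (119 CPM) and Exc-Vwa5b1 (115 CPM), and by NN-Astro (95.1 CPM). Zfhx4 was highest in NN-Endo-VLMC, at 434 and 468 CPM in BL6 and 326 and 312 CPM in DBA, from 24 to 83 counts per library, and the neuronal type with the most was Inh-Zfhx3 (mean 194 ± 7.04 CPM). It was also carried by NN-VLMC (mean 221 CPM), Inh-Drd2 (133 CPM), Inh-Lypd6b (105 CPM), Exc-Abi3bp (102 CPM), NN-Astro (102 CPM) and Neuronal-Aldoa-Cst3 (91.2 CPM).

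POU genes split into glial, microglial, neuronal and broad members. Pou3f2 and Pou3f3, which drive upper-layer neurons in the developing cortex, were highest in NN-Astro, at 70.4 and 60.6 CPM in BL6 and 64.8 and 69.5 CPM in DBA for Pou3f2 and 135 and 138 CPM in BL6 and 102 and 130.4 CPM in DBA for Pou3f3. Pou3f4 reached a mean of 17.0 CPM there. Pou3f1, a regulator of myelinating Schwann cells, gave 74.9 and 67.8 CPM in BL6 and 33.0 and 56.0 CPM in DBA in Exc-Tfap2c, from 6 to 22 counts per library, and a mean of 33.8 CPM in NN-OPC. Pou2f2, a lymphocyte factor, was carried by NN-MGC alone, at 363 and 348 CPM in BL6 and 394 and 403 CPM in DBA, and its next type, NN-OPC, had a mean of 68.8 CPM. Pou2f1, the broadly expressed member of that pair, was carried by all 22 types and was highest in NN-Astro, at 260.2 and 292 CPM in BL6 and 331 and 312 CPM in DBA. Pou6f1 was carried by 21 types and gave 71.5 and 72.9 CPM in BL6 and 77.8 and 70.9 CPM in DBA in NN-OPC, its highest. Its neighbour in the order, NN-Astro, overlapped that range.

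Pou5f2, which lies within Fam172a, had no type above a mean of 7.05 CPM and the lowest match of its type profile between strains (r = -0.22 over 22 types). Pou1f1, Pou2f3 and Pou4f1 had 88, 45 and 7 counts.

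The highest type differed between strains for 4 of the 30 members, Dlx1, Nkx6-2, Pou5f2 and Pou6f1. For Dlx1 and Nkx6-2 the highest type of each strain was among the first 3 of the other strain. Over the 30 members, the correlation of a member's type profile between strains had a median of 0.82. The levels in the highest type also lay close together: of 28 members whose highest type could be tested between strains, the median size of the log2 difference was 0.23, 27 differed by less than 1.5-fold, and 4 were called (14.3%, against 12.8% of all gene tests over cell types).

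**Figure D2:**
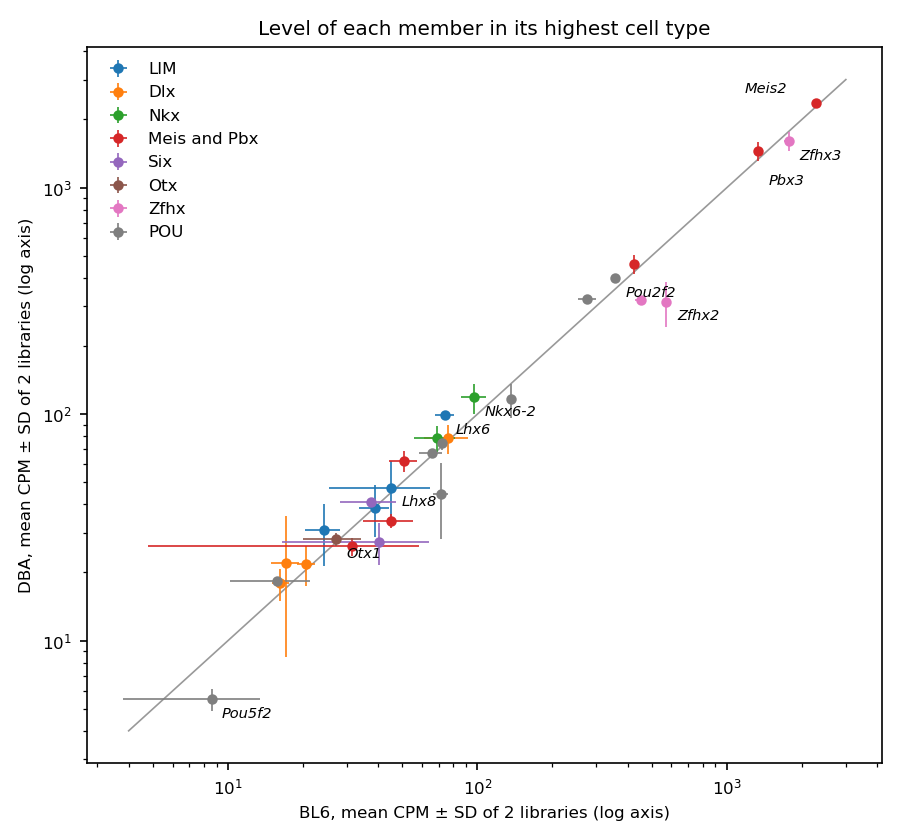
Level of the 30 members in their highest cell type, BL6 on the x axis and DBA on the y axis, both log axes in CPM with mean and SD of 2 libraries per strain. Points follow the line of equal levels, with Zfhx2 below it.

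Strain differences were tested on the counts of each type, and on 4 sums, which took together the nuclei of the Exc types, of the Inh types, of the NN types and of every type, with edgeR's quasi-likelihood test over all genes and Benjamini-Hochberg adjustment. Differences are log2 fold changes, DBA minus BL6, ± SE with 2 libraries per strain, and a gene was called at adjusted p under 0.05. Over 20 cell types, 17 of 282 tests of members were called (6.03%), against 12.8% of all gene tests. Of these calls, 9 were higher in DBA (8.05% of all gene tests) and 8 lower (4.74% of all gene tests). In the 4 sums, 10 of 129 tests were called (7.75%), against 23.1% of all gene tests, with 5 higher in DBA (16.6% of all gene tests) and 5 lower (6.59%). Among genes with at least 10 counts in each strain, 12 of 282 member tests were called in types (4.26%), against 5.78%, and 5 of 125 in sums (4%), against 7.73%. The share of members called was thus below the background in the full table and, by a smaller margin, among genes counted in both strains. The median log2 fold change of members was 0.09 in types and 0.08 in sums, and their median size was 0.26 in types. Of the 41 members that could be tested, 14 were called in at least 1 type or sum (34.1%, against 40.4% of all genes tested) and 27 in none, and 10 of the 27 calls in types and sums were made under every alternative that gave them a value. Among these 10, the calls of Pou5f1 and Otx2, with 0 counts in DBA, had no value in the alternative of genes counted in both strains. In class sums and pooled tissue, fewer cells of a type and less RNA per cell cannot be told apart.

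**Figure D3:**
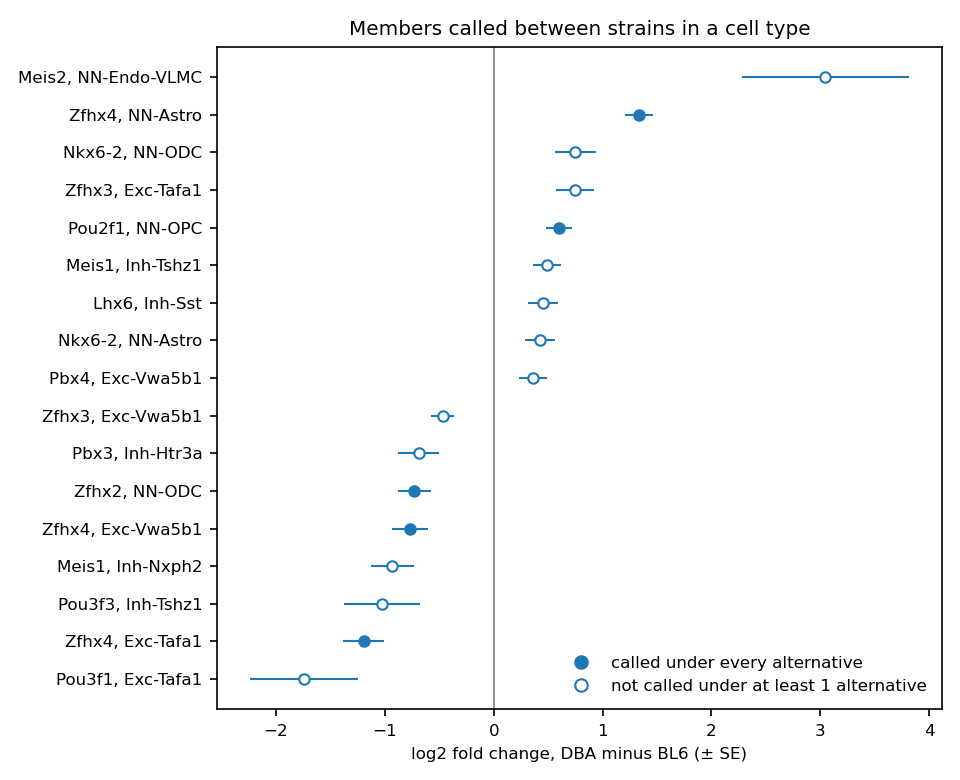
Log2 fold change, DBA minus BL6, with its SE for the 17 calls of members in a cell type. Filled points were called under every alternative of the processing and open points were not; Zfhx4 has filled points on both sides of 0.

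Zfhx4 had the smallest adjusted p of the calls in types, and it was higher in DBA in NN-Astro and lower in 2 excitatory types. In NN-Astro it stood at 61.5 and 61.7 CPM in BL6 and 144 and 139 CPM in DBA, 2.52-fold higher in DBA (log2 1.33 ± 0.13, edgeR adjusted p = 1.94e-07, against 16.9% of genes called). In Exc-Tafa1 it stood at 26.7 and 30.6 CPM in BL6 and 12.7 and 11.5 CPM in DBA, 2.29-fold lower in DBA (log2 -1.20 ± 0.19, edgeR adjusted p = 0.000853, background 18.6%). Exc-Vwa5b1 went the same way, with 43.5 and 36.8 CPM in BL6 and 21.8 and 24.7 CPM in DBA (log2 -0.77 ± 0.16, edgeR adjusted p = 5.86e-05, background 20.5%). The strains did not overlap in any of the 3 types. Exc-Abi3bp, the excitatory type with the most Zfhx4, stood at 108 and 86.4 CPM in BL6 and 95.7 and 117 CPM in DBA, with strains that overlapped, and was not called (log2 0.13 ± 0.13, edgeR adjusted p = 0.686). In Inh-Zfhx3, the neuronal type with the most Zfhx4, the strains lay at 192 and 196 CPM in BL6 and 185 and 202 CPM in DBA and the difference was not called (log2 0.01 ± 0.11, edgeR adjusted p = 0.984). In NN-Endo-VLMC and NN-VLMC, the types with the most Zfhx4, the DBA libraries lay below the BL6 libraries but neither difference was called (log2 -0.38 ± 0.36 and -0.83 ± 0.36). The non-neuronal sum rose, with 44.2 and 54.2 CPM in BL6 and 101 and 91.6 CPM in DBA (log2 1.08 ± 0.13, edgeR adjusted p = 0.000132, background 20%). The excitatory sum gave log2 -0.19 ± 0.14 and was not called. The test of the difference between the non-neuronal and excitatory effects gave 1.30 ± 0.29 with an edgeR adjusted p of 0.0718, above the threshold (background 3.11%). In NN-Astro the summed markers of oligodendrocytes were lower in DBA, 212 and 178 CPM in BL6 and 65.3 and 71.5 CPM in DBA, and no list of another cell type was higher in both DBA libraries than in both BL6 libraries.

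**Figure D4:**
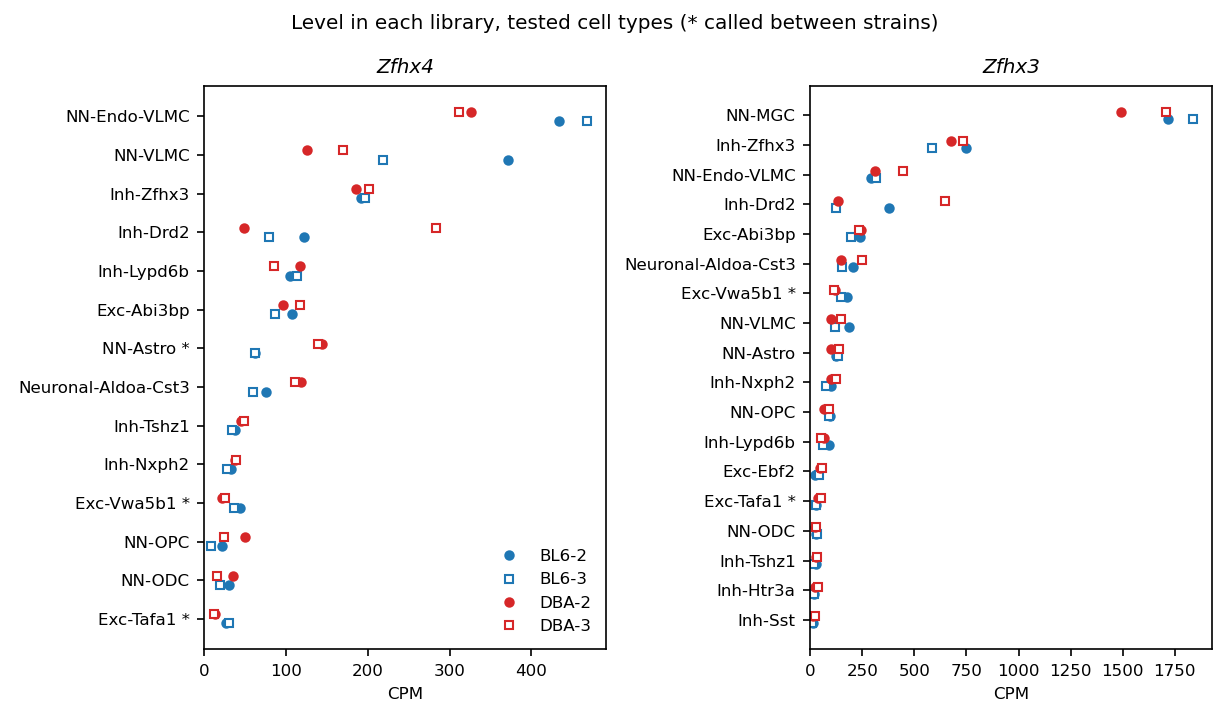
Level of Zfhx4 (left) and Zfhx3 (right) in CPM on the x axis in each of the 4 libraries, for the cell types where each was tested, ordered by the mean; stars mark the types called between strains. DBA points of Zfhx4 lie to the right in NN-Astro and to the left in Exc-Tafa1 and Exc-Vwa5b1, and NN-MGC lies apart from the other types for Zfhx3.

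Zfhx2 and Nkx6-2 moved apart in oligodendrocytes. Zfhx2 fell in NN-ODC, where its values were given above (log2 -0.73 ± 0.15, edgeR adjusted p = 0.000439, background 11.9%), and in the non-neuronal sum, 196 and 160.2 CPM in BL6 and 102 and 124 CPM in DBA (log2 -0.55 ± 0.14, edgeR adjusted p = 0.0161). The overlapping antisense gene Zfhx2os fell in all 4 sums, for example with 45.5 and 32.3 CPM in BL6 and 13.4 and 13.5 CPM in DBA in the non-neuronal one (log2 -1.42 ± 0.19, edgeR adjusted p = 0.00027). Without a stated strand, reads of the partners cannot be told apart. Zfhx2 itself was called in no neuronal type. Nkx6-2 rose in NN-ODC (log2 0.75 ± 0.19, edgeR adjusted p = 0.00587), in NN-Astro (log2 0.42 ± 0.14, edgeR adjusted p = 0.0428) and in the non-neuronal sum (log2 0.51 ± 0.14, edgeR adjusted p = 0.0243). Its DBA libraries were above its BL6 libraries in both types, but by as little as the step from 105 to 106 CPM in NN-Astro, and that call was made in 5 of 11 alternatives. The oligodendrocyte markers of NN-ODC itself were 13916 and 15196 CPM in BL6 and 14359 and 14118 CPM in DBA and overlapped between strains. The annotation has Nkx6-2 overlapping Inpp5a. The Nkx6-2 call in NN-ODC was lost without BL6-2 (edgeR adjusted p = 0.276) or DBA-2 (edgeR adjusted p = 0.0782), as well as with DESeq2 (adjusted p = 0.142). The Nkx6-2 call in NN-Astro was lost without BL6-2 (edgeR adjusted p = 0.251), DBA-2 (edgeR adjusted p = 0.0592) or DBA-3 (edgeR adjusted p = 0.354), as well as with scaling to total counts alone (edgeR adjusted p = 0.162), among genes counted in both strains (edgeR adjusted p = 0.0708) and with DESeq2 (adjusted p = 0.146). The Nkx6-2 call in the non-neuronal sum was lost without BL6-2 (edgeR adjusted p = 0.0723), DBA-2 (edgeR adjusted p = 0.056) or DBA-3 (edgeR adjusted p = 0.243), as well as with scaling to total counts alone (edgeR adjusted p = 0.0709). The Zfhx2 call in the non-neuronal sum was lost without DBA-2 (edgeR adjusted p = 0.224).

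Pou2f1 rose in the precursors, NN-OPC, with 145 and 155 CPM in BL6 and 223 and 208 CPM in DBA (log2 0.60 ± 0.12, edgeR adjusted p = 0.000638, background 12%) and in the non-neuronal sum, 177 and 203 CPM in BL6 and 248 and 238 CPM in DBA (log2 0.47 ± 0.11, edgeR adjusted p = 0.0123). The DBA libraries were above the BL6 libraries in both. Its neuronal sums were not called, and the difference of effects between the non-neuronal and the inhibitory sum was 0.41 ± 0.09 (edgeR adjusted p = 0.0336). That test called 2 of 39 members, against 2.41% of genes, and the 3 such contrasts together 2 of 117, against 1.85%. The summed oligodendrocyte markers of NN-OPC were 334 and 223 CPM in BL6 and 442 and 568 CPM in DBA, higher in DBA. Their part in the result was not tested. The Pou2f1 call in the non-neuronal sum was lost without DBA-2 (edgeR adjusted p = 0.148) or DBA-3 (edgeR adjusted p = 0.0835).

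Zfhx3 and Meis1 each had 1 call in either direction. Zfhx3 was higher in DBA in Exc-Tafa1, at 29.3 and 26.4 CPM in BL6 and 39.0 and 51.5 CPM in DBA (log2 0.75 ± 0.17, edgeR adjusted p = 0.0114), and lower in Exc-Vwa5b1, at 176 and 149.5 CPM in BL6 and 119 and 115 CPM in DBA (log2 -0.47 ± 0.11, edgeR adjusted p = 0.000167). Zfhx3 and Zfhx4 thus differed in the same direction in Exc-Vwa5b1 and in opposite directions in Exc-Tafa1. Meis1 was lower in Inh-Nxph2, at 33.8 and 25.3 CPM in BL6 and 13.8 and 17.3 CPM in DBA (log2 -0.93 ± 0.20, edgeR adjusted p = 0.00146, background 17.6%), and higher in Inh-Tshz1, at 90.5 and 74.7 CPM in BL6 and 129 and 101 CPM in DBA (log2 0.49 ± 0.13, edgeR adjusted p = 0.00796, background 19.4%). In its highest type, Exc-Abi3bp, Meis1 was not called (log2 0.13 ± 0.12, background 16.3%). These contrasts between types were not themselves tested. In Exc-Tafa1, where Zfhx4 and Zfhx3 were both called, summed endothelial markers were 64.3 and 58.5 CPM in BL6 and 5.15 and 4.13 CPM in DBA, lower in DBA, and their part in the results was not tested. The Zfhx3 call in Exc-Tafa1 was lost without DBA-3 (edgeR adjusted p = 0.117). The Zfhx3 call in Exc-Vwa5b1 was lost without BL6-2 (edgeR adjusted p = 0.115). The Meis1 call in Inh-Nxph2 was lost without BL6-2 (edgeR adjusted p = 0.167), as well as with DESeq2 (adjusted p = 0.0629). The Meis1 call in Inh-Tshz1 was lost without DBA-2 (edgeR adjusted p = 0.159).

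The other calls were less firm. Lhx6 was 1.37-fold higher in Inh-Sst (log2 0.45 ± 0.13, edgeR adjusted p = 0.0279, background 13.3%), where the somatostatin-cell markers were also higher in DBA, 1199.7 and 1584 CPM in BL6 and 1769 and 1818 CPM in DBA. Summed endothelial markers there were lower, 34.4 and 31.7 CPM in BL6 and 3.89 and 7.11 CPM in DBA, and the part of either list in the result was not tested. Pbx4 was 1.28-fold higher in Exc-Vwa5b1 (log2 0.36 ± 0.13, edgeR adjusted p = 0.0382). Pbx3 was lower in Inh-Htr3a, at 138 and 176 CPM in BL6 and 87.3 and 99.3 CPM in DBA (log2 -0.69 ± 0.19, edgeR adjusted p = 0.0119, background 7.45%), and higher in the excitatory sum, at 293 and 213 CPM in BL6 and 317 and 357 CPM in DBA (log2 0.43 ± 0.14, edgeR adjusted p = 0.0376, background 24.3%). Pou3f1 in Exc-Tafa1 had 19 and 16 counts in BL6 and 3 and 4 in DBA (log2 -1.74 ± 0.50, edgeR adjusted p = 0.034), and Pou3f3 in Inh-Tshz1 51 and 20 counts in BL6 and 12 and 21 in DBA (log2 -1.03 ± 0.35, edgeR adjusted p = 0.0389). Both are low levels of genes that other types carry. The Lhx6 call in Inh-Sst was lost without BL6-2 (edgeR adjusted p = 0.235), DBA-2 (edgeR adjusted p = 0.108) or DBA-3 (edgeR adjusted p = 0.0991), as well as among genes counted in both strains (edgeR adjusted p = 0.0522) and with DESeq2 (adjusted p = 0.325). The Pbx4 call in Exc-Vwa5b1 was lost without BL6-2 (edgeR adjusted p = 0.52) or DBA-3 (edgeR adjusted p = 0.422), as well as with no filter (edgeR adjusted p = 0.0516), with scaling to total counts alone (edgeR adjusted p = 0.0711), among genes counted in both strains (edgeR adjusted p = 0.0638) and with DESeq2 (adjusted p = 0.398). The Pbx3 call in Inh-Htr3a was lost without BL6-3 (edgeR adjusted p = 0.138) or DBA-2 (edgeR adjusted p = 0.287), as well as with DESeq2 (adjusted p = 0.392). The Pbx3 call in the excitatory sum was lost without BL6-3 (edgeR adjusted p = 0.304), DBA-2 (edgeR adjusted p = 0.069) or DBA-3 (edgeR adjusted p = 0.206), as well as with scaling to total counts alone (edgeR adjusted p = 0.0557) and among genes counted in both strains (edgeR adjusted p = 0.0762). The Pou3f1 call in Exc-Tafa1 was lost without BL6-2 (edgeR adjusted p = 0.103), BL6-3 (edgeR adjusted p = 0.234), DBA-2 (edgeR adjusted p = 0.186) or DBA-3 (edgeR adjusted p = 0.287), as well as among genes counted in both strains (edgeR adjusted p = 0.0925) and with DESeq2 (adjusted p = 0.395). The Pou3f3 call in Inh-Tshz1 was lost without BL6-2 (edgeR adjusted p = 0.486), DBA-2 (edgeR adjusted p = 0.0854) or DBA-3 (edgeR adjusted p = 0.15), as well as among genes counted in both strains (edgeR adjusted p = 0.0589) and with DESeq2 (adjusted p = 0.452).

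Meis2 rose in the non-neuronal sum, at 202 and 220.2 CPM in BL6 and 247 and 270.4 CPM in DBA (log2 0.41 ± 0.11, edgeR adjusted p = 0.0229), and in NN-Endo-VLMC, at 72.3 and 16.9 CPM in BL6 and 122 and 401 CPM in DBA from 4 and 3 counts in BL6 and 22 and 45 in DBA (log2 3.05 ± 0.77, edgeR adjusted p = 0.0291, background 7.57%). The summed inhibitory-neuron markers were also higher in DBA in NN-Endo-VLMC, 54.2 and 67.7 CPM in BL6 and 94.1 and 160.3 CPM in DBA. Their part in the result was not tested. The Meis2 call in NN-Endo-VLMC was lost without BL6-3 (edgeR adjusted p = 0.0886) or DBA-3 (edgeR adjusted p = 0.107), as well as with DESeq2 (adjusted p = 0.0778). The Meis2 call in the non-neuronal sum was lost without BL6-2 (edgeR adjusted p = 0.0513), DBA-2 (edgeR adjusted p = 0.0972) or DBA-3 (edgeR adjusted p = 0.229), as well as with scaling to total counts alone (edgeR adjusted p = 0.0881).

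The number of members with counts in BL6 alone was 4. Pou5f1, the pluripotency factor, had 50 and 43 counts in BL6 and 0 in both DBA libraries, at least 26.5-fold lower in DBA against a floor of 3 counts over the strain (edgeR adjusted p = 0.000966 over all nuclei, background 24%). It was called in the excitatory and inhibitory sums as well (background 23.9% in the inhibitory one). Otx2, a gene of the choroid plexus and midbrain, had 43 and 9 counts in BL6 and 0 in DBA, at least 14.8-fold lower (edgeR adjusted p = 0.00384). Of its 52 counts, 28 came from NN-Endo-SMC-Peri of BL6-2 alone. Nkx2-9 had 33 counts and Nkx2-4 had 6 in BL6 and 0 in DBA, and Irx6 had 3 counts in DBA alone. Of the 33993 genes with any count, 154 had 30 or more counts in BL6 and 0 in DBA, Pou5f1, Otx2 and Nkx2-9 among them. In the other direction, 3609 genes had 30 or more counts in DBA and 0 in BL6. Whether the gene sets counted in the strains were the same is not given in the sources used here.

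Genes that act with the members, or belong to other homeobox families, gave these counts. Of 43 other homeobox genes, 38 were in the table. Over all nuclei 33 were tested and 4 were called, all lower in DBA (12.1%, against 24%), with a median log2 fold change of -0.02 beside 0.04 over all genes. Adnp, which encodes a protein with a homeodomain, had 64.9 and 61.0 CPM in BL6 and 4.82 and 6.04 CPM in DBA (log2 -3.48 ± 0.15, edgeR adjusted p = 6.50e-06). Tshz3, a factor of striatal and cortical projection neurons, had 39.1 and 42.5 CPM in BL6 and 24.6 and 26.5 CPM in DBA (log2 -0.62 ± 0.11, edgeR adjusted p = 0.0038), and Onecut2 7.39 and 8.31 CPM in BL6 and 4.23 and 2.80 CPM in DBA (log2 -1.12 ± 0.24, edgeR adjusted p = 0.0114); Onecut1, under 1 CPM, was the fourth. All 4 had both DBA libraries below both BL6 libraries. Of 20 partners of LIM and TALE proteins and of the Six3 family, 3 of 20 were called over all nuclei (15%, against 24%), and 5 of 19 in the inhibitory sum (26.3%, against 23.9%), which is near the background. Ssbp4 and Ssbp3, of the complex that Ldb1 forms on LIM proteins, were higher in DBA, Ssbp4 at 89.5 and 92.2 CPM in BL6 and 122 and 153 CPM in DBA (log2 0.65 ± 0.13, edgeR adjusted p = 0.00652) and Ssbp3 at 58.4 and 62.5 CPM in BL6 and 71.7 and 81.9 CPM in DBA (log2 0.40 ± 0.10, edgeR adjusted p = 0.0301). Tgif2, a TALE repressor, was lower, at 4.10 and 4.50 CPM in BL6 and 1.96 and 2.53 CPM in DBA (log2 -0.88 ± 0.23, edgeR adjusted p = 0.0305). Of 14 antisense transcripts listed, 9 were in the table and 6 were tested over all nuclei, where 2 were called (33.3%, against 24%), Zfhx2os and Otx2os1, both lower in DBA.

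Accessibility followed RNA across types. The peaks that overlapped a member or lay within 2 kb of it numbered 389, and every one of the 51 members had at least 1. Over the 16 types with enough ATAC nuclei, which leave out NN-Astro and NN-ODC, the summed accessibility of a member's peaks and its RNA had a median correlation of 0.83 over the 30 members on the log2(CPM + 1) scale. The correlation was above 0.5 for 24 of them and highest for Dlx6 (r = 0.98). It was lowest for Nkx6-2 (r = -0.35), whose carrying types are both outside the 16, and low for Otx1 (r = 0.10) and Pou5f2 (r = 0.09). NN-Astro, the 1 type that carried Otx1, is also outside the 16. Within the 16 types, the same type was highest in both assays for 15 of the 30. Among these matches, Pou2f1, Pou3f2, Pou3f3 and Six5 had their highest RNA type outside the 16. The 2 assays share the authors' type names, and depth differs between types, so these values are a description.

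**Figure D5:**
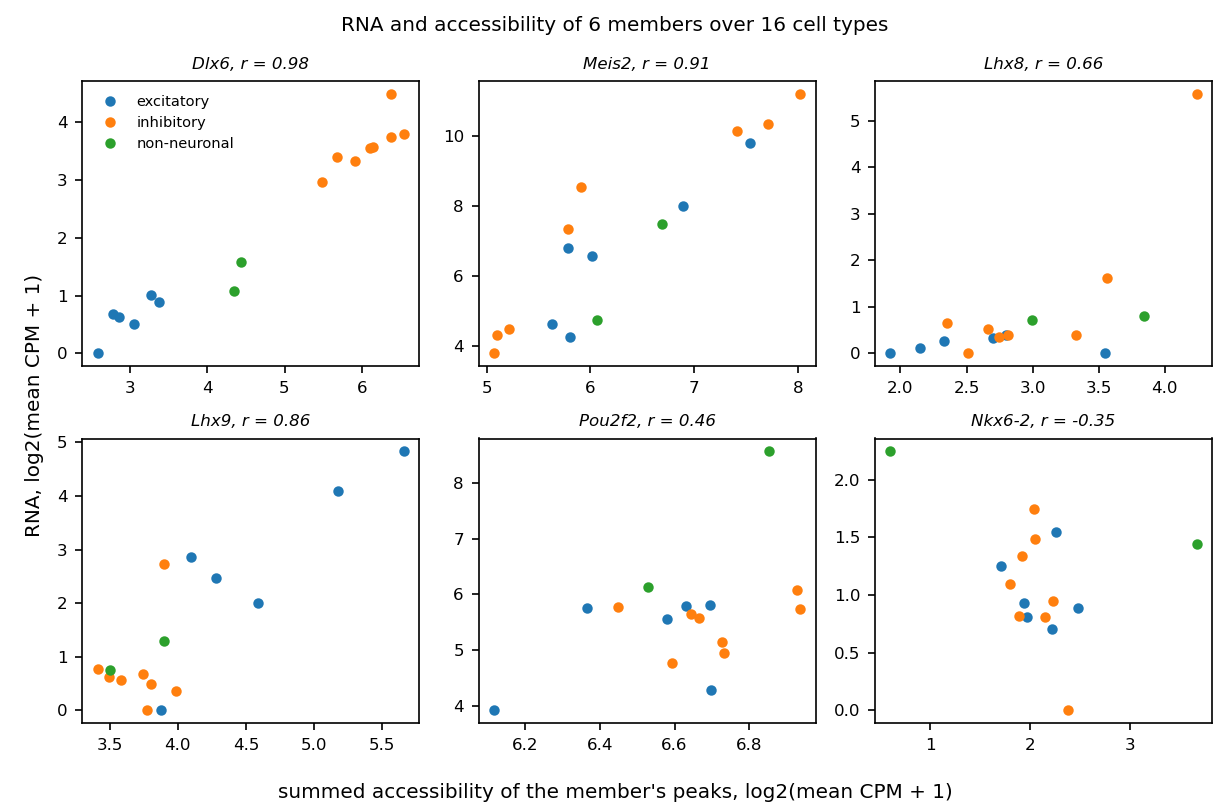
RNA level (y axis) against the summed accessibility of a member's peaks (x axis), both log2(mean CPM + 1) over 4 libraries, for 6 members in 16 cell types coloured by class. Dlx6, Meis2 and Lhx9 rise together in both assays, Lhx8 has 1 type apart from the rest, and Nkx6-2, whose carrying types were not among the 16, shows no rise.

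Between strains, 39 of 1232 peak tests in the 4 sums were called at members (3.17%), against 4.79% of all peaks tested, 17 higher and 22 lower in DBA, and 22 of 2038 tests in single types (1.08%), against 2.04%. The 30 distinct peaks called lay at 13 members. No share over all peaks is given here for distinct peaks or for their direction, so these counts have no background. Zfhx3, the gene with the most peaks (78), had 10 of these 30, 6 higher and 2 lower in DBA among the 8 called in sums. The intronic or exonic place of a peak was not resolved, since the annotation used here gives gene spans alone. A peak inside Zfhx3 at chr8:108347807-108349126 (mm10) had 3.09 and 3.16 CPM in BL6 and 4.71 and 4.88 CPM in DBA over all nuclei (log2 0.66 ± 0.13, edgeR adjusted p = 1.70e-05, background 6.44%). A peak near its far end at chr8:108955955-108956743 went the other way, with 2.30 and 2.53 CPM in BL6 and 1.37 and 1.65 CPM in DBA (log2 -0.64 ± 0.17, edgeR adjusted p = 0.00353). Within 1 gene the strains were thus apart in both directions.

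The 3 called peaks of Pbx4 within 2 kb were all lower in DBA, for example 5.76 and 4.84 CPM in BL6 and 2.40 and 2.68 CPM in DBA in the excitatory sum at chr8:69844277-69845188 (log2 -1.01 ± 0.16, edgeR adjusted p = 1.52e-06, background 4.93%). Pbx4 RNA was called higher in DBA in Exc-Vwa5b1, where 2 of its 7 tested peaks were called, both lower, and the median over the 7 was 0.15. The peak over its promoter was not called in the excitatory sum (log2 0.13 ± 0.11, edgeR adjusted p = 0.683), and a peak further than 2 kb from the gene, chr8:69881952-69882439, was called higher there (log2 0.58 ± 0.14, edgeR adjusted p = 0.00408). Zfhx4, which differed in RNA, had 21 peaks and none was called in a sum or a type. Its most covered peak, chr3:5218961-5220012, had 6.79 and 7.20 CPM in BL6 and 7.78 and 8.07 CPM in DBA over all nuclei (log2 0.22 ± 0.11, edgeR adjusted p = 0.284), and NN-Astro could not be tested for accessibility. The most covered peak of Lhx8, chr3:154327673-154328682, had 3.64 and 4.17 CPM in BL6 and 3.42 and 4.48 CPM in DBA in the inhibitory sum, and that of Lhx6, chr2:36104514-36105760, had 5.71 and 6.51 CPM in BL6 and 6.98 and 7.53 CPM in DBA over all nuclei. Neither was called, and among the most covered peaks of the members called for RNA and of the 6 most type-restricted members, that of Otx2 alone was called in a sum. This peak, chr14:48664775-48665159, lay over a promoter window of Otx2, but not over the 250 bases of Otx2 that were used for the promoter count. It was higher in DBA in the inhibitory sum, at 1.17 and 0.959 CPM in BL6 and 1.76 and 2.29 CPM in DBA (log2 0.96 ± 0.25, edgeR adjusted p = 0.0111, background 3.47%). Otx2 RNA in the inhibitory types was 2 counts in BL6-2 and 0 in the other libraries.

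Of the 39 members with a RefSeq promoter sequence, 28 had a peak over the 250 bases before the start. That peak was called between strains for the Dlx2 and Six3 promoters printed earlier, in both cases in Inh-Zfhx3 and in opposite directions. The Dlx2 peak had 24.3 and 29.4 CPM in BL6 and 21.0 and 15.7 CPM in DBA there (log2 -0.51 ± 0.14, edgeR adjusted p = 0.0258, background 2.22%). The Six3 peak had 19.4 and 16.0 CPM in BL6 and 24.1 and 28.6 CPM in DBA (log2 0.57 ± 0.13, edgeR adjusted p = 0.0102). Neither gene was called for RNA in that type.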

How the data were processed

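Single-nucleus RNA and ATAC of mouse amygdala were analysed in 2 libraries per strain and assay; 16 methylation samples were not analysed here. Per the submitters' processing notes, Cell Ranger 6.0.2, Cell Ranger ATAC 2.0.0, Seurat 4.0.5 and mm10 were used. The authors deposited raw counts per gene or peak and nucleus, with their own cell types. Counts were summed per library and type (at least 10 nuclei in each) and per class, and CPM computed from the sums. No doublet caller was run. Strains were compared with edgeR 4.0.16 in R 4.3.3 (TMM, filterByExpr minimum count 10, robust quasi-likelihood fit, Benjamini-Hochberg over all genes or peaks), tested on simulated data; DESeq2 1.42.0 was an alternative. Each library pools about 2 animals, so p-values measure the spread between 2 pools per strain. Members and lists were chosen with earlier results of these data known. By the rule for naming, members with 200 or more counts are described by type, with values per library where the highest type reached 20 CPM, and every member called is named. Of 54 genes that the symbol rule takes, 3 are not reported here. Peak coordinates are as deposited.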

Additional observations from a re-analysis of the deposited data

Results flagged for a closer look

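The strain effects of 2 members differed between classes by a test of the difference itself. For Pou2f1 the non-neuronal effect exceeded the inhibitory one by 0.41 on the log2 scale. For Lhx8 the same difference was -4.18 ± 1.01 (edgeR adjusted p = 0.0448), from few non-neuronal counts, and both calls were lost without DBA-2 and without DBA-3, when 0 members were called.

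In 3 members, calls in single types went in opposite directions with no overlap between strains, and those differences between types were not tested. Meis1 gave -0.93 in Inh-Nxph2 and 0.49 in Inh-Tshz1, Zfhx3 gave 0.75 in Exc-Tafa1 and -0.47 in Exc-Vwa5b1, and Zfhx4 gave -1.20 in Exc-Tafa1, -0.77 in Exc-Vwa5b1 and 1.33 in NN-Astro.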

How the results depend on the processing

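With edgeR, 17 member calls in types became 31 with no filter and 8 with DESeq2, and ranged from 16 to 22 as each library was left out. The 10 calls in sums became 22 with no filter, 19 with a crossed block (chosen after seeing the data) and 5 among genes counted in both strains, and ranged from 7 to 16, with 16 without BL6-2. The 2 interaction calls became 4 with no filter and 1 among genes counted in both strains, and ranged from 0 to 6, with 0 without DBA-2 or DBA-3 (18 of 117 tests had an unadjusted p under 0.05). The 39 peak calls became 11 with DESeq2 and 24 at an adjusted p under 0.01, and ranged from 13 without BL6-3 to 67 without DBA-3, with 21 without BL6-2. The number of members with the same highest type ranged from 22 to 26 as each library was left out. Of the 27 single calls, 10 held in every alternative that gave a value and none reversed. Same-numbered libraries did not deviate together (r = -0.38 over all nuclei), so the numbers were not taken as pairs; the replicate block gave 22 calls in types, 11 in sums and 40 peaks, and 23 of the 27 calls remained (not Meis2 in NN-Endo-VLMC, Pbx4 in Exc-Vwa5b1, Pou3f1 in Exc-Tafa1 or Pou3f3 in Inh-Tshz1). With the crossed block, 25 of the 27 calls remained (not Lhx6 in Inh-Sst or Pou3f1 in Exc-Tafa1). Peaks in single types were not run under the alternatives. Types of few nuclei limit what can be seen: Exc-Strip2 and NN-Endo-SMC-Peri could not be tested for RNA.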
